A study of Mus musculus with 9 samples.

Results

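Small nucleolar RNA host genes are transcribed as long RNAs whose introns carry small nucleolar RNAs (snoRNAs). The 9 host genes described here are Gas5, Snhg1, Snhg3, Snhg4, Snhg5, Snhg6, Snhg8, Snhg12 and Snhg15. They were taken by gene name from a table of 55385 gene rows, in which the 9 names held 10 rows because Snhg4 had 2 gene identifiers. The list was proposed with earlier results of these libraries in view, so the members' own values in comparisons with high glucose are given as a description, with no p-value, and their calls and intervals support nothing.

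RNA sequencing was done on 9 libraries of MCP5, a mouse podocyte line whose genotype the labels give as wild type. Podocytes are the epithelial cells that wrap the capillaries of the kidney glomerulus. There were 3 libraries in each of 3 groups, which were control cells with a blank treatment, cells given glucose at 50 mmol/L, and cells given advanced glycation end products (AGEs, proteins modified by sugars) at 400 µg/mL. The sources used here do not give how long the cells were treated, or any osmotic or carrier control. Nothing says that the libraries of a group came from separate cultures. Each p-value of the main fit rests on the spread within all 3 groups of 3 libraries, and the libraries of a group may be technical repeats. All libraries came from 1 cell line.

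After splicing, the introns of a host RNA are trimmed to mature snoRNAs, which guide chemical modification of ribosomal RNA. Box C/D snoRNAs (Snord genes) guide methylation of ribose and box H/ACA snoRNAs (Snora genes) guide conversion of uridine to pseudouridine. The spliced exons of many host genes encode no conserved protein, begin with a terminal oligopyrimidine (TOP) tract like ribosomal protein mRNAs, and are degraded by nonsense-mediated decay when they are translated. Gas5 was named for its accumulation in growth-arrested cells.

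The sequences around the annotated transcription starts are shown because a TOP tract is defined by the first bases of the RNA. RefSeq promoter windows on build GRCm38.p6 were found for 7 of the members and printed for these, from 45 bases before the start to 35 bases from it, on the strand of the gene. Capitals mark a run of at least 6 C or T letters that begins with C within 10 bases of the start, or the letters TATANA between 50 and 10 bases before it, on the gene strand only. Gas5 has 2 annotated starts. They lie at chr1:161034556-161034635 and chr1:161035121-161035200 on the plus strand. The Snhg1 stretch is chr19:8723442-8723521 and that of Snhg12 is chr4:132308633-132308712, both on the plus strand. On the minus strand are Snhg5 at chr9:88522863-88522942, Snhg8 at chr3:123508302-123508381, Snhg15 at chr11:6528726-6528805 and Snhg3 at chr4:132353652-132353731. Snhg6 and Snhg4 are named only.
Gas5 start 1: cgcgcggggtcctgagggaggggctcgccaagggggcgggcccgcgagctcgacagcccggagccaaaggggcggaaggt
Gas5 start 2: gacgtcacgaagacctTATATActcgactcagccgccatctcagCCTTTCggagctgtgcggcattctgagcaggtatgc
Snhg1: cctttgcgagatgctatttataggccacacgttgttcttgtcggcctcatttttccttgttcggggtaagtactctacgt
Snhg5: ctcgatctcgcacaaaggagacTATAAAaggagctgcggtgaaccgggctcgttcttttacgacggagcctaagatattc
Snhg12: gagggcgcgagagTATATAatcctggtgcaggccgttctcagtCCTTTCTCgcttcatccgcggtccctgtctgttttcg
Snhg8: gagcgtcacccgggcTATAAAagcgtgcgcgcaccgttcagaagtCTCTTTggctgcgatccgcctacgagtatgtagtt
Snhg15: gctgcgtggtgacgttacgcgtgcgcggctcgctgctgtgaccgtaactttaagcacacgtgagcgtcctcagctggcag
Snhg3: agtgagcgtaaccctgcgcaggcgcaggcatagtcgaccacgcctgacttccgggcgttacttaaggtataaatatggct

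A pyrimidine run lay at the start in 3 of the 8 windows, those of the Gas5 start 2, Snhg8 and Snhg12. The Snhg12 run, CCTTTCTC, was the longest at 8 bases. Of 32851 RefSeq windows, 19.2% held such a run. TATANA, a motif chosen after the sequences were seen, lay before the start in 4 windows (Gas5 start 2, Snhg5, Snhg8 and Snhg12), and in 3.95% of all windows. The letters CACGTG, searched on both strands over 250 bases before to 50 bases after the start, were found for Snhg15, in lower case above, and in 7.15% of all windows. TGATGCAA, searched in the same way, was in none of the 8 windows and in 0.895% of all. A match describes the letters only. Snhg12 and Snhg5, the members furthest below control in high glucose in the values that follow, carry TATANA. Snhg1, next in that order, has none of the motifs searched. Snhg8 carries TATANA and Snhg15 does not, at log2 fold changes of -2.03 and -2.02 in high glucose. Gas5 has it at start 2 only, and no Snhg6 window is printed. A link between these motifs and the levels was not tested.

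Total counts ran from 46284878 (high glucose library 2) to 77242281 (high glucose library 1). The first principal component, with 41.0% of the variance, separated the high glucose libraries from the other 6, and the second, with 11.9%, set AGEs library 3 apart. Of the podocyte markers, Wt1 had 11 counts in high glucose library 2 and 0 elsewhere, while Nphs1, Synpo and Podxl were detected in every library. The summed CPM of 6 parietal epithelial markers was 899.2 to 948 in control, 1783 to 1994 in high glucose and 849.7 to 1068 in AGEs, with none at 0 throughout. Of these 6, 3 were higher in high glucose than in control at an edgeR adjusted p under 0.05, as were 19.6% of all genes, and 3 were not called. Cd24a alone had a mean of 184.3 CPM in control and 1062 in high glucose. For 7 tubular markers, of which Slc34a1, Aqp2 and Umod were at 0 in every library, the sums were 122.6 to 125.6, 355.5 to 396.2 and 120.6 to 157.8. The sums of 6 endothelial markers were 5.478 to 5.851, 12.41 to 15 and 4.195 to 4.897, those of 6 mesangial and fibroblast markers 34.82 to 38.34, 50.5 to 57.67 and 28.78 to 36.16, and those of 7 leukocyte markers 77.69 to 87.08, 132.6 to 143.8 and 75.37 to 93.97, each in the order control, high glucose, AGEs. For the podocyte markers they were 807.6 to 1118, 1115 to 1177 and 1226 to 1272. A sum can hide markers that differ. Of 6 leukocyte markers tested, 2 were called higher in high glucose, 3 were not called and 1 was called lower, beside 19.6% of all genes higher and 19.7% lower. The lower one, Cd68, had 21.5 CPM in control and 9.39 in high glucose. The part of all these marker lists in the results on the host genes was not tested. In bulk RNA, fewer cells of a type and less RNA per cell cannot be told apart.

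The host genes as a group were lower in high glucose than in control and close to control in AGEs. Of all counts in control libraries the 10 rows together held 0.120% ± 0.008 (SD, n = 3). The share was 0.0246% ± 0.0020 with high glucose and 0.115% ± 0.013 with AGEs. By library the control shares were 0.1276%, 0.1118% and 0.1194%, the high glucose shares 0.02587%, 0.02566% and 0.02231%, and the AGEs shares 0.123%, 0.1229% and 0.1%. The high glucose libraries lay below all others, and the control and AGEs libraries overlapped. Within the group the part taken by Gas5 stayed level, at 42.4% ± 1.0 of the control counts of all members, 42.5% ± 1.44 under high glucose and 42.8% ± 1.53 with AGEs. In edgeR's quasi-likelihood fit over all 17680 genes that passed the filter on low counts, the call was made at an adjusted p below 0.05. All 10 rows passed that filter. In CPM, the high glucose libraries of 9 rows, all but Snhg3, lay below every control library without overlap, as in 25.8% of all genes. In FPKM the longer Snhg4 row overlapped, with 1.383 in high glucose library 1 and 1.295 in control library 3. Of the 10 rows, 8 were called lower in high glucose than in control, where 39.3% of all genes were called and 19.7% were called lower. Of the genes called, 49.9% were higher, against 68.6% in limma's test on log2(FPKM + 1). The median log2 fold change was -2.02 over the 10 rows and 0.03 over all genes tested. Nothing is read from the member count, since the members were chosen with this comparison known.

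**Figure D1:**
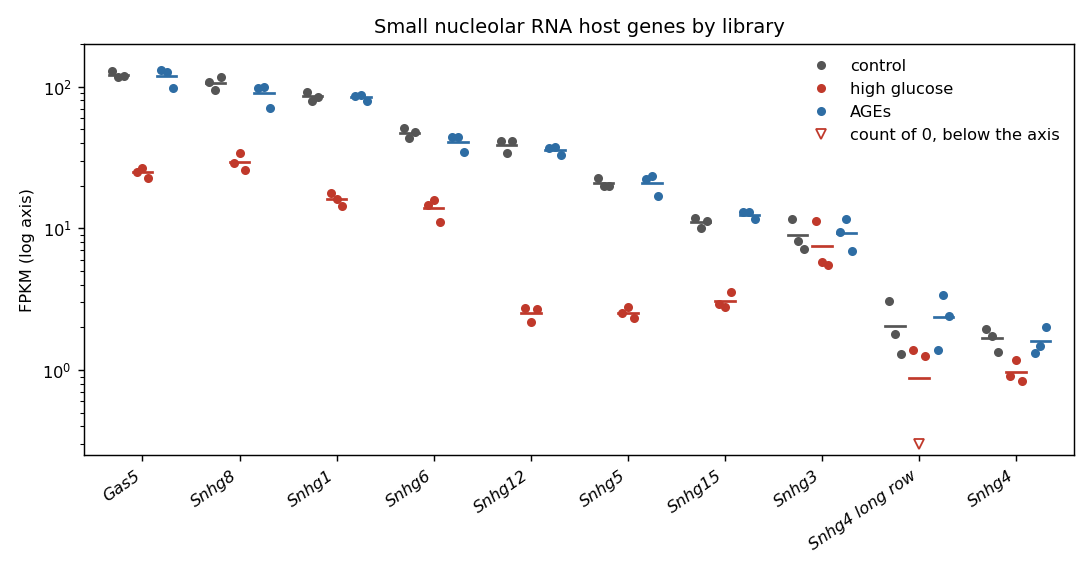
FPKM (a level adjusted for transcript length and sequencing depth, log axis) of the 10 host gene rows in each library, with a point per library and a bar at the group mean of control (grey), high glucose (red) and AGEs (blue). The open triangle marks a library with a count of 0, which lies below the axis. For 7 rows the high glucose points sit far below the others, for Snhg3 the groups overlap, and the 2 Snhg4 rows are low in every group.

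Gas5 (ENSMUSG00000053332, chr1:161034422-161038539, plus strand) holds 10 snoRNA rows, of which 4 carry Snord names, and up to 12 exons in GENCODE M21. Its level in CPM (counts scaled to library size, with TMM factors) was 560.6, 500.2 and 517.5 in control. In high glucose it was 98.81, 102.7 and 86.03, and in AGEs 566.8, 552.5 and 441.2. Gas5 was thus low in all 3 high glucose libraries, with a log2 fold change of -2.46 ± 0.11 (SE) against control, or 5.49-fold lower. AGEs library 3 was the lowest outside high glucose.

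Snhg1 (ENSMUSG00000108414, chr19:8723475-8726443, plus strand) holds 8 snoRNA rows. Its CPM was 316.5, 270 and 293.7 in control and 55.33, 48.86 and 43.55 in high glucose. In AGEs it was 298.1, 303.2 and 279.3, inside the control range. High glucose was 5.96-fold lower than control, with a log2 fold change of -2.57 ± 0.10 (SE).

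Snhg5 (ENSMUSG00000097195, chr9:88495268-88523562, minus strand) is the host of 2 Snord genes. Its CPM was 95.34, 82.78 and 84.02 in control libraries, 9.627, 10.42 and 8.702 under high glucose, and 94.79, 99.54 and 72.96 with AGEs. The high glucose libraries did not overlap the others, and the log2 fold change against control was -3.19 ± 0.14 (SE), or 9.12-fold lower. Snhg6 (ENSMUSG00000098234, chr1:9941959-9944118, minus strand), with 1 Snord gene, had a smaller difference. It measured 67.78, 56.7 and 63.96 CPM in control, 17.54, 18.42 and 12.97 under high glucose and 58.4, 58.63 and 47.32 with AGEs. That is 3.85-fold lower in high glucose, with a log2 fold change of -1.95 ± 0.15 (SE).

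Among the hosts of Snora genes, Snhg12 (ENSMUSG00000086290, chr4:132308623-132311024, plus strand) had the lowest high glucose level relative to control. It holds 4 rows with Snora names, in which Snora16a stands more than once at nearly the same place, and 1 row with a Snord name. CPM was 114.6, 93.37 and 116.1 in control, 6.913, 5.379 and 6.649 under high glucose and 102.9, 104.7 and 94.29 with AGEs. The high glucose group was 17.1-fold lower than control, a log2 fold change of -4.09 ± 0.13 (SE), or -3.49 in limma's test on log2(FPKM + 1). Of the 17680 genes tested, 89 had a lower value than Snhg12. That number was 132 for Snhg5, 204 for Snhg1, 218 for Gas5, 340 for Snhg8, 344 for Snhg15 and 361 for Snhg6. These positions are a description, as the members were named with them known.

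Snhg8 (ENSMUSG00000104960, chr3:123507552-123508404, minus strand), a short gene of 853 bp around 1 Snora gene, measured 106.7, 92.09 and 115.6 CPM in control. Its CPM was 25.59, 29.36 and 22.34 under high glucose and 97.33, 98.62 and 72.43 with AGEs. The log2 fold change in high glucose was -2.03 ± 0.15 (SE), or 4.07-fold lower than control, with no overlap. Snhg15 (ENSMUSG00000085156, chr11:6525591-6528779, minus strand), also with 1 Snora gene, was 36.56, 30.64 and 34.75 CPM in control, 8.059, 7.487 and 9.609 under high glucose and 39.83, 40.32 and 36.67 with AGEs. Its high glucose level was 4.05-fold below control (log2 fold change -2.02 ± 0.12, SE). Every AGEs library of Snhg15 lay just above the highest control library.

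Snhg3 (ENSMUSG00000085241, chr4:132348014-132353686, minus strand), which holds 2 Snora genes, differed from the other members in its values. CPM was 13.27, 9.212 and 8.265 in control, 11.58, 5.832 and 5.566 under high glucose and 10.78, 13.49 and 8.186 with AGEs. The groups overlapped, since high glucose library 1 lay among the control libraries. The log2 fold change was -0.42 ± 0.32 (SE) with a 95% interval from -1.13 to 0.30, and Snhg3 was not called. Without high glucose library 1 the log2 fold change was -0.85, and the count of member rows called was 9 in place of 8.

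Snhg4 lies on chromosome 18 in 2 rows on the plus strand. The row typed as a noncoding RNA (ENSMUSG00000117869, chr18:35553371-35558316) had 10.68, 9.401 and 7.326 CPM in control, 4.464, 5.596 and 4.03 under high glucose and 7.199, 8.07 and 11.19 with AGEs. High glucose was 1.95-fold lower than control without overlap, with a log2 fold change of -0.96 ± 0.22 (SE) and of -0.44 in limma's test on log2(FPKM + 1). The longer row (ENSMUSG00000117694, chr18:35553404-35578939), which overlaps Matr3 on the same strand, had control counts of 494, 310 and 196, high glucose counts of 261, 0 and 223, and AGEs counts of 231, 591 and 430. The count of 0 lay in high glucose library 2, the shallowest library. There the noncoding row had 284 counts, beside 370 and 320 in high glucose libraries 1 and 3. The log2 fold change of the longer row was -1.37 ± 0.98 (SE), not called. Reads of the 2 rows and of Matr3 may have been split between them, because the sources used here do not give the strand and overlap settings of the counting.

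On the FPKM scale, which divides by transcript length and allows levels to be set between genes, Gas5 led in control at 121 (116.1 to 128.3), followed by Snhg8 at 106 (94.23 to 116.8) and Snhg1 at 85.4 (79.35 to 91.75). Gas5 and Snhg8 overlapped in control. Snhg6 at 47.4 FPKM, Snhg12 at 38.9, Snhg5 at 20.8 and Snhg15 at 11.1 came next and did not overlap their neighbours, except that Snhg15 overlapped Snhg3 at 8.96. The rows of Snhg4, at 2.05 for the longer one and 1.69 for the other, were lowest and overlapped. AGEs had the same order. In high glucose Snhg8 at 29.5 and Gas5 at 24.9 overlapped at the top, Snhg12 moved from the fifth to the eighth place with 2.54, and Snhg3 from the eighth to the fifth with 7.53. Snhg15, Snhg5 and Snhg12, which spanned 3.08 to 2.54 FPKM, overlapped as neighbours in high glucose, whereas in control they were apart.

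In AGEs against control, none of the 10 rows was called by edgeR's quasi-likelihood test with Benjamini-Hochberg adjustment, where 0.0848% of all genes were called. None had an unadjusted p under 0.05, beside 12.4% of all genes. DESeq2 and limma on log2(FPKM + 1) called 0 as well, where they called 325 and 15 of all 17680 genes. A count of 0 among so few rows is near these shares. The difference closest to 0 was that of Snhg1, with a log2 fold change of 0.0008 and a 95% interval from -0.22 to 0.22 (edgeR adjusted p = 0.999). Gas5 gave -0.02 with an interval from -0.26 to 0.23 (edgeR adjusted p = 0.971). These intervals bound the difference of each gene, and do not show that it is 0.

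For Snhg12 the log2 fold change in AGEs was -0.10 (95% interval -0.36 to 0.16, edgeR adjusted p = 0.763) and for Snhg5 0.03 (-0.26 to 0.31, edgeR adjusted p = 0.955). Snhg8 gave -0.23 (-0.56 to 0.10, edgeR adjusted p = 0.559) and Snhg6 -0.20 (-0.53 to 0.13, edgeR adjusted p = 0.616). Snhg15 was the only row whose 3 AGEs libraries all lay above control, at 0.20 (-0.07 to 0.46), and it did not pass the adjustment (edgeR adjusted p = 0.523), while 19.2% of all genes did not overlap between AGEs and control in either direction. The intervals were wider for Snhg3, from -0.63 to 0.79, for Snhg4, from -0.54 to 0.43, and for the longer Snhg4 row, from -1.92 to 2.40. AGEs library 3 had the lowest AGEs value for Gas5, Snhg1, Snhg3, Snhg5, Snhg6, Snhg8, Snhg12 and Snhg15. Without it the log2 fold change of Gas5 was 0.09, that of Snhg5 0.15, that of Snhg6 -0.10 and that of Snhg8 -0.10, and the count of member rows called was 0.

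AGEs against high glucose shares its high glucose libraries with the first comparison. There the 8 rows called in the first comparison were called higher in AGEs, where 39.9% of all genes were called in either direction and 19.7% were called higher. The log2 differences ran from 0.50 for Snhg3 to 3.99 for Snhg12, with 2.44 for Gas5, 2.58 for Snhg1 and 3.22 for Snhg5.

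**Figure D2:**
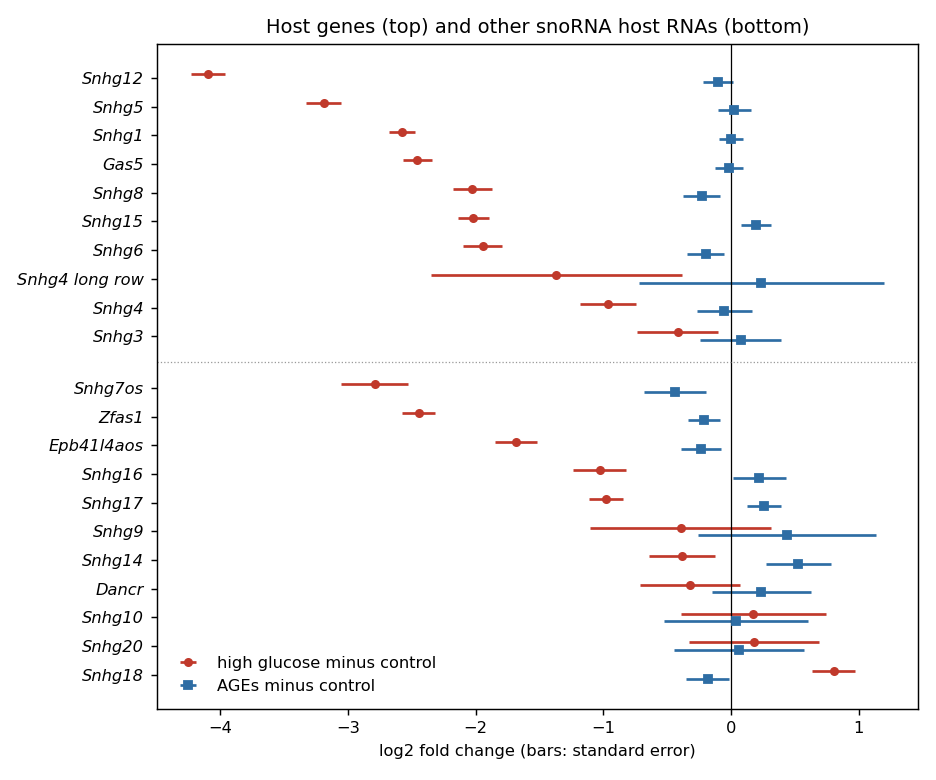
Log2 fold change against control of the 10 host gene rows (top) and of the 11 tested RNAs of the list of other snoRNA hosts (bottom). Bars give the standard error, circles high glucose and squares AGEs. In high glucose Snhg12 lies at -4.09 and Snhg3 at -0.42, and in AGEs the members lie between -0.23 and 0.24.

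The other RNAs listed as snoRNA hosts were 15 genes, of which 11 were tested. They were taken by a name that begins with Snhg, which brought in the opposite-strand gene Snhg7os, or were added by name. Whether each carries a snoRNA was not checked. In high glucose against control 5 fell and 1 rose, against 19.7% and 19.6% of all genes, and their median log2 fold change was -0.39. The list was chosen with earlier results of these data known, so these counts and calls are a description. Zfas1, host of Snord12 family snoRNAs, fell from 249.5 ± 25.2 CPM (SD, n = 3) to 45.9 ± 4.21 (log2 fold change -2.44, edgeR adjusted p = 2.13e-06). Snhg7os fell from 10.2 ± 1.01 to 1.48 ± 0.30 CPM (-2.79, edgeR adjusted p = 4.36e-05), and Epb41l4aos by 1.68 on the log2 scale (edgeR adjusted p = 4.95e-05). Snhg17 fell by 0.98 (edgeR adjusted p = 0.000372) and Snhg16 by 1.03 (edgeR adjusted p = 0.00367). Snhg18 went the other way and rose from 2.86 ± 0.38 to 4.999 ± 0.352 CPM (edgeR adjusted p = 0.00408). Snhg9, Snhg10, Snhg14, Snhg20 and Dancr did not pass the test, and Meg3, Rian, Mirg and Snhg11 were too low to be tested. In AGEs against control 0 of the 11 were called, beside 0.0848% of all genes. At an unadjusted p under 0.05 stood 0 of them, beside 12.4% of all genes. DESeq2 and limma on log2(FPKM + 1) called 0, where they called 325 and 15 of all 17680 genes. A count of 0 among so few genes is near these shares.

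Members share their loci with other genes. Slc3a2, the heavy chain of amino acid transporters, starts 106 bp from the start of Snhg1 on the opposite strand. Its CPM was 999.7, 936 and 1081 in control, 227.1, 219.1 and 199.7 under high glucose and 974.7, 983 and 936 with AGEs, so that high glucose lay apart for both genes of the pair. In high glucose Slc3a2 fell by 2.22 on the log2 scale (edgeR adjusted p = 2.24e-07), beside -2.57 for Snhg1, and in AGEs it differed from control by -0.06 (edgeR adjusted p = 0.786).

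The pair at Gas5 had a different pattern. Zbtb37, a zinc finger gene that overlaps Gas5 on the opposite strand with its start 427 bp away, measured 20.1 ± 10.1 CPM (SD, n = 3) in control and 18.8 ± 5.44 in high glucose (log2 fold change -0.09, edgeR adjusted p = 0.879). The difference between Gas5 and Zbtb37 was not tested. Matr3, an RNA-binding nuclear matrix protein gene that overlaps the longer Snhg4 row, gave -0.11 (edgeR adjusted p = 0.537). Gm17300, a noncoding RNA inside Snhg3 on the opposite strand, fell by 0.63 (edgeR adjusted p = 0.00829). Gm36989, inside the longer Snhg4 row, gave 0.40 (edgeR adjusted p = 0.734). None of these genes was called in AGEs against control. Without a stated strand setting, reads of Snhg3 and Gm17300, or of Gas5 and Zbtb37, cannot be told apart where the genes overlap.

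**Figure D3:**
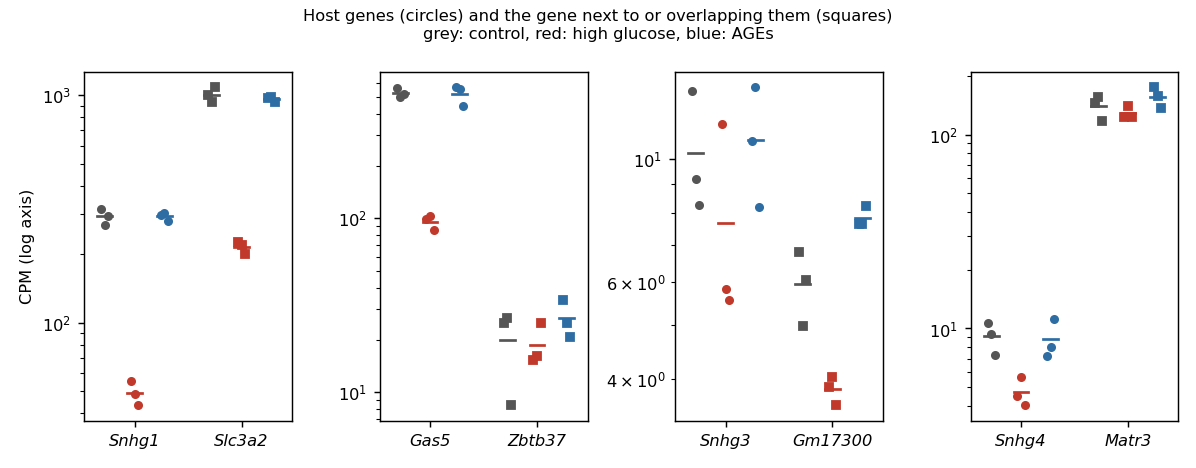
CPM (log axis) in each library of 4 host genes (circles) and of the gene beside or overlapping each (squares), with bars at the group means. Levels compare libraries within a gene, not genes. Slc3a2 is low in the high glucose libraries together with Snhg1, whereas Zbtb37 and Matr3 overlap between control and high glucose.

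The snoRNA rows inside the members carried little signal. Of 32 such rows, 15 had exactly 1 count in every library, as had 159 rows of the whole table with a median span of 76 bp, so no level is read from them. Of the others 10 were tested, and 5 were called lower in high glucose than in control, beside 19.7% of all genes. In AGEs 0 were called, beside 0.0848% of all genes. Not every row followed its host. Inside Snhg5, the untested Snord50b row had 7, 3 and 4 counts in high glucose, and Snord50a 14, 13 and 1. Both had 1 count in every control and AGEs library. The untested Snora74a row inside Snhg4 went the other way, with 3, 3 and 3 counts in control and 1, 1 and 0 in high glucose. Within Gas5, Gm22357 measured 4.96 ± 1.08 CPM (SD, n = 3) in control and 1.95 ± 0.10 in high glucose, and a Snord80 row 1.42 ± 0.22 and 0.574 ± 0.047. The Snora24 row inside Snhg8 measured 1.24 ± 0.28 and 0.529 ± 0.156, Gm50452 inside Gas5 1.41 ± 0.15 and 0.258 ± 0.216, and Gm25894 0.863 ± 0.262 and 0.317 ± 0.062. Gm50452 was no longer called without control library 1, 2 or 3 or high glucose library 1 (edgeR adjusted p up to 0.0647), nor Gm25894 without control library 2 (edgeR adjusted p = 0.0531). Gm24452 was called without control library 3 (edgeR adjusted p = 0.0338). The rows lie inside their host genes and may share reads with them, which was not tested, so they are not taken as separate evidence.

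The processing and decay of host RNAs depend on proteins whose genes were listed too. These lists and the gene lists below were chosen with earlier results of these data known. Their counts and calls in high glucose are therefore a description. Of 21 genes for snoRNP proteins and their assembly factors, 15 fell and 2 rose in high glucose, where 19.7% of all genes fell and 19.6% rose, with a median log2 fold change of -0.47. Nop56, a core protein of box C/D particles, fell by 1.01 (edgeR adjusted p = 0.000362). Nolc1, a chaperone of snoRNPs, fell by 0.95 (edgeR adjusted p = 3.94e-05), Naf1, an assembly factor of box H/ACA particles, by 0.68 (edgeR adjusted p = 0.000154), and Ruvbl1, an ATPase of the assembly machinery, by 0.49 (edgeR adjusted p = 0.00034).

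Of 19 nonsense-mediated decay factors tested, 5 fell, 3 rose and 11 were not called, with a median log2 fold change of -0.0018, where 19.7% of all genes fell and 19.6% rose. Nbas fell by 0.81 (edgeR adjusted p = 0.000137), Smg8 by 0.41 (edgeR adjusted p = 0.00142) and Casc3, of the exon junction complex, by 0.37 (edgeR adjusted p = 0.00367), while the RNA helicase gene Dhx34 rose by 0.54 (edgeR adjusted p = 0.00578). All 16 TOP mRNAs other than those of ribosomal proteins fell, beside 19.7% of all genes, with a median of -0.84. The log2 fold change was -1.55 for Npm1, a nucleolar chaperone (edgeR adjusted p = 2.13e-06). It was -1.33 for Eef2 and -1.04 for Eef1a1, translation elongation factors (edgeR adjusted p = 2.13e-06 and 3.35e-06), and -0.85 for the poly(A)-binding protein gene Pabpc1 (edgeR adjusted p = 6.17e-06).

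Protein-coding genes that hold a Snora, Snord or Scarna gene on their own strand numbered 66 among the genes tested. Of these 47 fell and 5 rose, beside 19.7% and 19.6% of all genes, and their median log2 fold change was -0.70. Gnl3, a nucleolar GTPase, fell by 1.44 (edgeR adjusted p = 2.43e-06), Rpl12 by 1.32 (edgeR adjusted p = 3.58e-06) and Rpl4 by 0.86 (edgeR adjusted p = 5.09e-06). Many genes of this list, such as Rpl12 and Rpl4, encode ribosomal proteins. Eef2, Eef1b2, Rack1 and Tpt1 of the TOP list and Nop56 and Nop58 of the snoRNP list belong to it as well. The lists are thus not separate, and the part of shared genes in their counts was not tested. When hosts were taken by the snoRNA gene type instead of the snoRNA name, an alternative added after seeing the data, 92 of 229 fell and 34 rose, with a median of -0.20. Of 13 long noncoding RNAs that are not in the host lists, 1 was called lower and 2 higher, beside 19.7% and 19.6% of all genes, with a median of 0.02. The difference from the host lists was not tested. Among these Mir22hg rose by 0.94 (edgeR adjusted p = 0.00125) and Pvt1 fell by 0.93 (edgeR adjusted p = 0.00697). Dleu2 rose by 0.55 (edgeR adjusted p = 0.0403), a call that other settings lost, with adjusted p up to 0.13.

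In AGEs against control no gene of the snoRNP, decay, TOP or protein-coding host lists was called by edgeR, where 0.0848% of all genes were. At an unadjusted p under 0.05 stood 10 of 21 snoRNP genes, 3 of 19 decay factors, 3 of 16 TOP mRNAs and 16 of 66 hosts, against 12.4% of all genes. DESeq2 called 1, 1, 1 and 2 of them, and limma on log2(FPKM + 1) called 0, where they called 325 and 15 of all 17680 genes. Of the other long noncoding RNAs Dleu2 was called lower in AGEs, with a log2 fold change of -2.60 (edgeR).

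**Figure D4:**
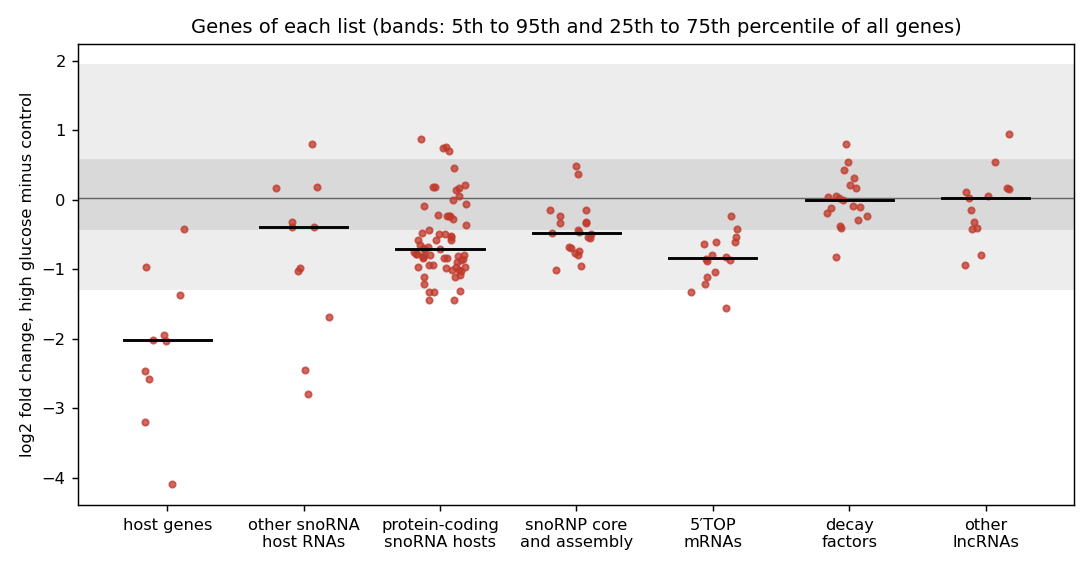
Log2 fold change in high glucose against control of each tested gene of 7 lists, a point per gene with a bar at the list median. Grey bands give the 5th to 95th and the 25th to 75th percentile of all genes tested. The host gene median is -2.02, that of TOP mRNAs -0.84 and that of decay factors near 0.

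Genes whose level over the 9 libraries ran most like the mean of the members were found by the root mean square difference of centred log2 CPM, over 10899 genes with a mean CPM of at least 5. The median of this difference over those genes was 1.088, and for the members themselves it ran from 0.206 for Snhg15 to 1.72 for the longer Snhg4 row. The closest were Cpox, an enzyme of heme synthesis, at 0.188, and Hsp90b1, a chaperone of the endoplasmic reticulum, at 0.199. Pdia4, a disulfide isomerase of the same compartment, stood at 0.208, Slc3a2 at 0.217, Fam171b at 0.219 and the stress-inducible Gadd45a at 0.222. Cpox measured 262.9 ± 17.3 CPM (SD, n = 3) in control, 57.9 ± 3.36 under high glucose and 261.1 ± 11.2 with AGEs. Likeness here is a description over libraries that share their groups.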

How the data were processed

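The authors deposited 1 table for all 9 libraries that holds whole-number counts and FPKM of each gene, per the file headers. Total RNA was extracted with TRIzol and fragments were reverse-transcribed, per the labels' protocols. cutadapt 1.9, FastQC and GRCm38 are named in the submitters' processing notes. Aligner, counting tool, annotation and strandedness: not given in the sources used here. Counts were tested with edgeR 4.0.16 in R 4.3.3 (TMM scaling, filterByExpr, 1 fit of 3 group means over all libraries, two-sided tests, Benjamini-Hochberg over 17680 genes, called under 0.05). Alternatives used DESeq2 1.42.0 and limma 3.58.1 on log2(FPKM + 1) and log2(FPKM + 0.1). Only the edgeR test was tried on simulated data, with the same spread set for every gene, which need not be the spread of these libraries. Total counts were 46284878 to 77242281 per library. Between libraries of a group the chi-square per degree of freedom was 47.7 to 109.5, where counting noise alone would give about 1. Depth is thus not the only limit on the precision.

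The members and gene lists were chosen with earlier results of these data known. Named genes were all members, other hosts and neighbouring genes tested, with values for up to 6 hosts by p, up to 4 called genes by p from each list, and the 6 most like the members. Of the gene identifiers 55144 were found in GENCODE M21, 51991 with the same coordinates. Marker lists were summed per library, with some markers given singly, and a marker gene is not reported here.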

Additional observations from a re-analysis of the deposited data

How the results depend on the processing

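Under 18 alternatives (other tests, scalings, filters, a replicate block, the 2 groups only, and leaving out each library), no called result changed direction. The 8 member rows called lower in high glucose were called in each, which supports nothing, since the members were chosen with this comparison known. The count in AGEs against control was 15 genes, 325 with DESeq2, 5 with the replicate block, and 10 to 21 when a library was left out, with 0 members in each. Deviations of same-numbered libraries correlated from -0.067 to 0.084, and those of differently numbered libraries from -0.069 to 0.074. No shared effect of a replicate number was thus seen. Whether libraries were handled in matched sets is not given. In high glucose against control, decay factors called were 3 lower and 5 higher with limma at both pseudocounts, in place of 5 and 3, and protein-coding snoRNA hosts called higher were 9 in place of 5. With hosts taken by snoRNA type the share called lower was 40.2% in place of 71.2%. Other long noncoding RNAs called higher were 1 without the filter and with the replicate block, and 1 to 2 with a library left out, as were those called lower. With limma on log2(FPKM + 0.1), 67.9% of called genes were higher, and the median over all genes was 0.17 in place of 0.03. The limma settings also moved 19 member fold changes that involve high glucose, all toward 0, and leaving out a library ended 5 calls and made 1 among snoRNA rows inside members. The cause of these shifts was not tested. Low counts limit the precision of the tested snoRNA rows. The longer Snhg4 row, with 0 counts in high glucose library 2, had 261 and 223 in the others of its group, a spread that was not tested against depth.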
